A study of Mus musculus with 4 samples.

Results

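Rrad, Gem, Rem1 and Rem2 encode the 4 RGK small GTPases, and their transcripts were followed in soleus muscles of *mdx* mice given cardiosphere-derived cells from mouse (mCDCs) or vehicle. The 4 genes were taken by their symbols from a table of 24054, and all 4 are listed there. The family was chosen by the measured difference of Rrad between mCDC and vehicle muscles, so every difference between the groups in these 4 genes is a description and carries no p. The mice were females of the *mdx* strain C57BL/10ScSn-DMDmdx/J, which lacks full-length dystrophin through a mutation in Dmd, and this holds for both groups. From 8 weeks of age they were infused once a month through the femoral vein, either with passage 5 mCDCs grown from a single heart of a C57BL/10ScSn/J mouse, which has dystrophin, or with culture medium (vehicle). Soleus was taken at the 12-month endpoint, and bulk RNA-seq was done on 2 muscles per group.

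RGK proteins form a branch of the Ras superfamily. They bind the beta subunits of voltage-gated calcium channels and inhibit the calcium current, and they also act on the actin cytoskeleton. Most Ras proteins are switched by exchange and hydrolysis of GTP at a fairly steady level, whereas RGK proteins are largely set by how much of them is made. Rrad (Rad, Ras associated with diabetes) is typical of heart and skeletal muscle, where the L-type channel senses the voltage that triggers contraction. Gem was first known as a gene induced in activated lymphocytes, Rem1 is found in heart and other tissues, and Rem2 belongs mainly to neurons.

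The 4 genes lie on different chromosomes of GRCm38, the assembly also called mm10, and each principal coding transcript has 5 exons. Rrad is at chr8:104628070-104631327 on the minus strand and codes for 307 residues. Gem, at chr4:11704457-11714752, codes for 295 residues, Rem1, at chr2:152626951-152635198, for 297, and Rem2, at chr14:54476100-54480431, for 341, all on the plus strand. The last 63 coding bases, stop codon included, are shown because they hold the tail that sets RGK proteins apart from most other Ras proteins, which end in a signal for a lipid anchor. Each stretch lies in a single exon, and capitals mark the bases that all 4 genes share at the same distance from the stop.
Rrad, chr8:104628451-104628513, minus strand: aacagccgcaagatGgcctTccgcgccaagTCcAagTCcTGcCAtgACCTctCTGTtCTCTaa
Gem, chr4:11713691-11713753, plus strand: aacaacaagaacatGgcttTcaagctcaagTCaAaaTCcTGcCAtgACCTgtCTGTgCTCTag
Rem1, chr2:152634655-152634717, plus strand: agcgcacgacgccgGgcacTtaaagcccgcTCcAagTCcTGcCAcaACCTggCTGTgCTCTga
Rem2, chr14:54479683-54479745, plus strand: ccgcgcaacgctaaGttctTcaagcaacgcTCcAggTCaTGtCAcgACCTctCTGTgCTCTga
Of the last 30 bases 19 are shared by all 4 genes, against 4 of the 33 bases before them. Over the whole coding sequence, identity between pairs of members ran from 63.9% for Rem1 and Rem2 to 68.5% for Rrad and Rem2. The longest run of identical bases was 23, between Rrad and Rem1, and no member shared a 31-base word with another. The counts of the 4 genes were whole numbers in every library. Rrad shared 7.05% of its 31-base words with Gm33023, a gene annotated on the opposite strand that overlaps it and for which no value was used here. Whether the counting used strand is not given in the sources used here, so the reads of Rrad and Gm33023 cannot be told apart in that stretch.

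The deposited values are expected counts per gene, which summed to between 22481391 and 27187425 per library. Levels are given in CPM, the usual count rate relative to the library total, here scaled by trimmed means of M-values (TMM). Between groups, edgeR's quasi-likelihood test was run on the 13652 genes that passed a filter on low counts. To be called, a gene had to differ by more than 1.5-fold at an unadjusted p under 0.05. By that rule 172 genes (1.26% of those tested) were higher in mCDC muscles and 374 (2.74%) were lower, or 121 and 508 when the libraries were scaled by their totals alone. No gene had an adjusted p under 0.05 in that test, where 947 had an unadjusted p under 0.05, while DESeq2 gave 48, the likelihood ratio test 66 and the exact test 58 genes with an adjusted p under 0.05. For 1 gene, 2 muscles against 2 allow an exact two-sided permutation p of 0.333 at the lowest. The slow and fast fiber markers of soleus were abundant, with summed levels of 68720 to 84595 CPM for 6 slow fiber genes and 24687 to 30246 CPM for 7 fast fiber genes.

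Rrad was the most abundant RGK gene of these muscles, and its transcripts were several times higher in the mCDC libraries. The mCDC muscles (replicates 1 and 2, in this order throughout) had 6338 and 11072 counts, and the vehicle muscles 2190 and 1575. Scaled for library size, these were 240 and 506 CPM in the mCDC muscles and 83.5 and 57.3 CPM in the vehicle muscles. Both mCDC libraries lay above both vehicle libraries, and the lower mCDC value was 2.87 times the higher vehicle value. The means were 373 ± 188 CPM (SD, n = 2) and 70.4 ± 18.6 CPM (SD, n = 2), a log2 fold change of 2.40 (standard error 0.34) or 5.29-fold. Of the 3 members that passed the filter, Rrad alone did not overlap between the groups, where 19.2% of all tested genes had both mCDC libraries above both vehicle libraries; since this contrast chose Rrad, nothing is read from that count.

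The size of the Rrad difference depended on mCDC replicate 2. That library had 2.11 times the CPM of mCDC replicate 1, a gap well beyond counting error, since the exact 95% Poisson intervals of the counts were 6183 to 6496 and 10867 to 11280. The vehicle libraries differed by 1.46 times. Without mCDC replicate 2 the log2 fold change was 1.77 (standard error 0.23), and without mCDC replicate 1 it was 2.84 (standard error 0.23). The intervals cover counting error only. Among the 7 fast fiber markers, mCDC replicate 2 had the lowest Myh4, Myh1, Pvalb and Atp2a1, with Myh4, the fastest myosin, at 47.4 CPM against 163 to 2095 CPM in the other libraries. Its levels of Myh2, Tnni2 and Tnnt3 lay within the range of the other libraries, with Myh2 at 9613 CPM against 6746 to 10855 CPM. Among the 8 macrophage markers, Cd68 was highest in that library, at 15.4 CPM against 2.71 to 4.15 CPM, whereas Emr1, Csf1r, Lyz2 and Cd163 were lowest there, with Lyz2 at 9.22 CPM against 9.69 to 22.9 CPM. The part of these differences in the Rrad level was not tested.

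**Figure D1:**
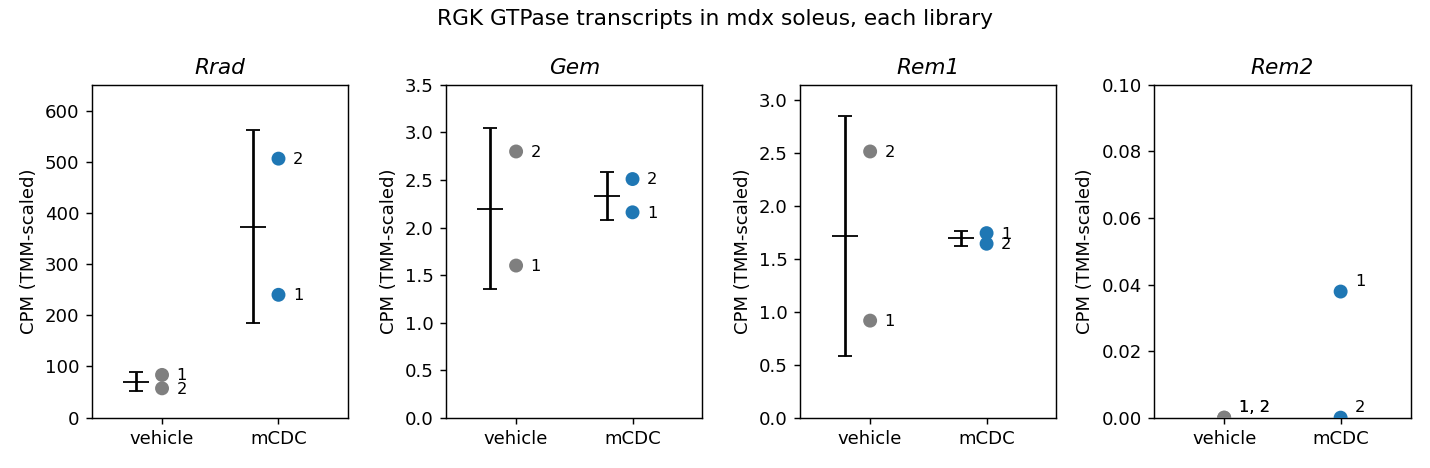
CPM of Rrad, Gem, Rem1 and Rem2 in each library (points, numbered by replicate; linear axes that differ between panels), with the mean and SD of the 2 libraries per group as a bar beside them, left out for Rem2. Rrad at 240 and 506 CPM in mCDC muscles lies above 83.5 and 57.3 in vehicle muscles, while Gem and Rem1 overlap between the groups and Rem2 is at 0 in 3 libraries.

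Gem and Rem1, by contrast, were scarce, and their mCDC libraries lay between the vehicle libraries. Gem had 57 and 55 counts after mCDCs and 42 and 77 after vehicle. In CPM these were 2.16 and 2.51 against 1.6 and 2.8, so both mCDC values fell between the vehicle values. Its log2 fold change was 0.08 (standard error 0.34). Rem1 had 46 and 36 counts after mCDCs, and 24 and 69 after vehicle. That gave 1.74 and 1.64 CPM against 0.915 and 2.51, again with both mCDC values inside the vehicle range, and a log2 fold change of -0.02 (standard error 0.46). A difference of 1.5-fold in either direction would lie within 2 standard errors for both genes, so it was not detectable at this depth and number of muscles.

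Vehicle replicate 2 was the highest library for both genes, and vehicle replicate 1 the lowest. For Gem, the exact 95% Poisson intervals of the vehicle counts were 30.3 to 56.8 and 60.8 to 96.2, and for Rem1 they were 15.4 to 35.7 and 53.7 to 87.3, so the vehicle muscles differed beyond counting error in each gene. The log2 fold change of Gem was 0.54 without vehicle replicate 2 and -0.26 without vehicle replicate 1, and that of Rem1 was 0.88 and -0.56. Vehicle replicate 2 also had the highest summed level of endothelial markers (8 genes, among them Pecam1, Cdh5 and Kdr), at 260 CPM against 113 to 144 in the other libraries, and of 8 fibroblast markers, at 677 CPM against 369 to 418. Of the 8 endothelial markers Vwf was called lower in mCDC muscles, and of the 8 fibroblast markers Pdgfra, Col1a2 and Lum were. Over all tested genes 2.74% were called lower. Each of these called markers was highest in vehicle replicate 2, with Pdgfra at 12.9 CPM against 5.21 to 6.98 CPM in the other libraries. The part of these cells in the levels of Gem and Rem1 was not tested. In a bulk muscle, fewer cells of a type and less RNA per cell cannot be told apart.

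Rem2 was at the limit of detection. It had 1 count in mCDC replicate 1 and 0 in the other libraries, and it did not pass the filter. A count of 0 allows up to 3 counts, or 0.114 to 0.133 CPM of the unscaled total in these 3 libraries, so no fold change is given. Of 6 neuronal markers, Snap25, Nefl, Syt1 and Rbfox3 were likewise at or under 3 counts in every library, while Stmn2 had 42 to 103 counts and Tubb3 had 9 to 17.

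Divided by transcript length, so that genes can be set beside each other, Rrad made up nearly the whole RGK pool. Its level in TPM, computed as counts per kilobase of transcript and brought to one sum in every library, was 282 and 587 after mCDCs, and after vehicle it was 108 and 71.7. Gem stood between 1.64 and 2.77 on that scale and Rem1 between 1.12 and 2.98. Rrad accounted for 98.6% and 99.3% of the RGK sum in the mCDC libraries and for 97.5% and 92.6% in the vehicle libraries. The order was Rrad, then Gem and Rem1 together, then Rem2: Gem was above Rem1 in 3 libraries and below it in vehicle replicate 2, at 0.928 to 1.46 times its level, and it was below Rem1 in every library (0.559 to 0.876 times) when incomplete transcripts entered the lengths. Among 23666 genes with a length, Rrad held rank 494 and 243 per length in the mCDC libraries and rank 1224 and 1658 in the vehicle libraries, whereas Gem and Rem1 lay between ranks 9889 and 11581.

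Rrad was also high for a Ras protein. It ranked first among 35 listed Ras family genes, RGK members included, in 3 libraries. In vehicle replicate 2 it ranked 3, behind Rras at 89.4 and Rap1a at 76.3 TPM, both widely expressed Ras proteins of cell adhesion. Hras, the classical Ras of growth factor signalling, stayed between 67.5 and 71.3 in all 4 libraries. With 1.26% of all tested genes called higher and 2.74% lower, a list of 19 to 27 genes with no call is near the background. None of the 27 tested Ras family genes other than the RGK members was called with edgeR's quasi-likelihood test, nor with DESeq2, the exact test or the likelihood ratio test, and Rras2 alone had an unadjusted p under 0.05. Rras2, a relative of Rras active in growth signalling, had 38.8 and 49.2 CPM in mCDC muscles and 35 and 25.5 CPM in vehicle muscles, or 0.54 on the log2 scale (standard error 0.20) with an adjusted p of 0.700 in edgeR's quasi-likelihood test. The median log2 fold change of the 27 genes was 0.093, beside -0.0094 for all genes tested.

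The channel that RGK proteins inhibit was abundant, and no gene of it passed the test. Cacna1s, the pore and voltage sensor of the muscle L-type channel, had 886 and 777 CPM after mCDCs and 985 and 863 CPM after vehicle, which overlap. Its log2 fold change was -0.15 (standard error 0.15), with an adjusted p of 0.828 in edgeR's quasi-likelihood test. Cacnb1, the muscle beta subunit and the binding site of RGK proteins, had 281 and 297 CPM against 305 and 243 CPM, also overlapping, or 0.08 on the log2 scale (standard error 0.15, adjusted p of 0.916). Cacna2d1, the extracellular alpha2-delta subunit, had 169 and 140 CPM against 204 and 173 CPM. Both of its mCDC values were below both vehicle values, as in 19.5% of all tested genes, but the difference of -0.29 in log2 (standard error 0.15, adjusted p of 0.735) did not pass the test. Cacng1, the muscle gamma subunit, was at 0.28 (standard error 0.17) and Stac3, an adaptor the channel needs to reach the triad, at 0.14 (standard error 0.13). In both, each mCDC value was above each vehicle value, as in 19.2% of all tested genes, and neither passed the test.

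**Figure D2:**
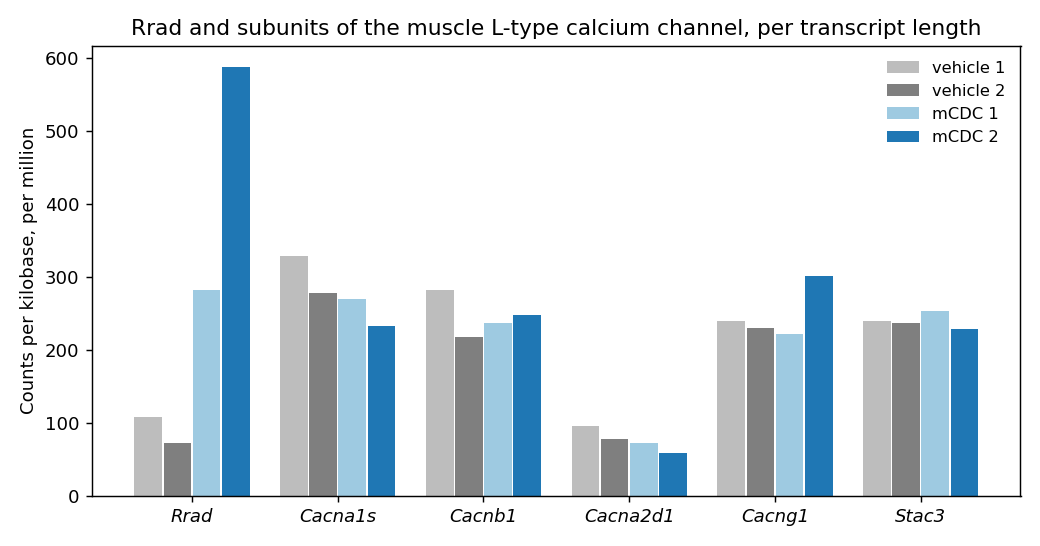
Level per transcript length (TPM, counts per kilobase brought to one sum in every library, linear axis from 0) of Rrad and of 5 genes of the L-type channel complex, 1 bar per library. Rrad runs from 71.7 to 587, while Cacnb1 stays between 218 and 282 and Stac3 between 228 and 253.

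Set against the beta subunit they bind, RGK transcripts were fewer in the vehicle muscles and, per length, more in the mCDC muscles. The RGK sum per length was 0.393 and 0.356 times that of Cacnb1 in the vehicle libraries, and 1.21 and 2.40 times in the mCDC libraries. With the longest annotated transcript of each gene in place of the mean length these ratios were 0.605, 0.547, 1.87 and 3.69, and without division by length they were 0.282, 0.257, 0.868 and 1.71. The groups stayed apart on each scale, but whether the sum exceeded Cacnb1 in mCDC replicate 1 depended on it. These are ratios of transcripts and not of proteins, and they hold the Rrad difference that chose the family.

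Of 29 genes for channel subunits and STAC adaptors, 19 were tested and none was called with edgeR's quasi-likelihood test, DESeq2, the exact test or the likelihood ratio test, and none had an unadjusted p under 0.05, where 1.26% of all tested genes were called higher and 2.74% lower. Their median log2 fold change was -0.15, beside -0.0094 for all genes, with 7 of 19 above 0. The values ran from -0.59 for Cacna2d4 to 1.05 for Stac, both under 1 CPM in every library. The other beta subunits, which can replace Cacnb1 in other tissues, were low, with Cacnb3 between 2.45 and 4.18 TPM and Cacnb2 and Cacnb4 under 1 in every library. The cardiac pore Cacna1c stayed between 0.681 and 1.19 on that scale. None of the 22 triad and store genes, among them the release channel Ryr1 at -0.16 and the pump Atp2a1 at 0.06, was called by any of those 4 tests or had an unadjusted p under 0.05, and their median was 0.076.

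**Figure D3:**
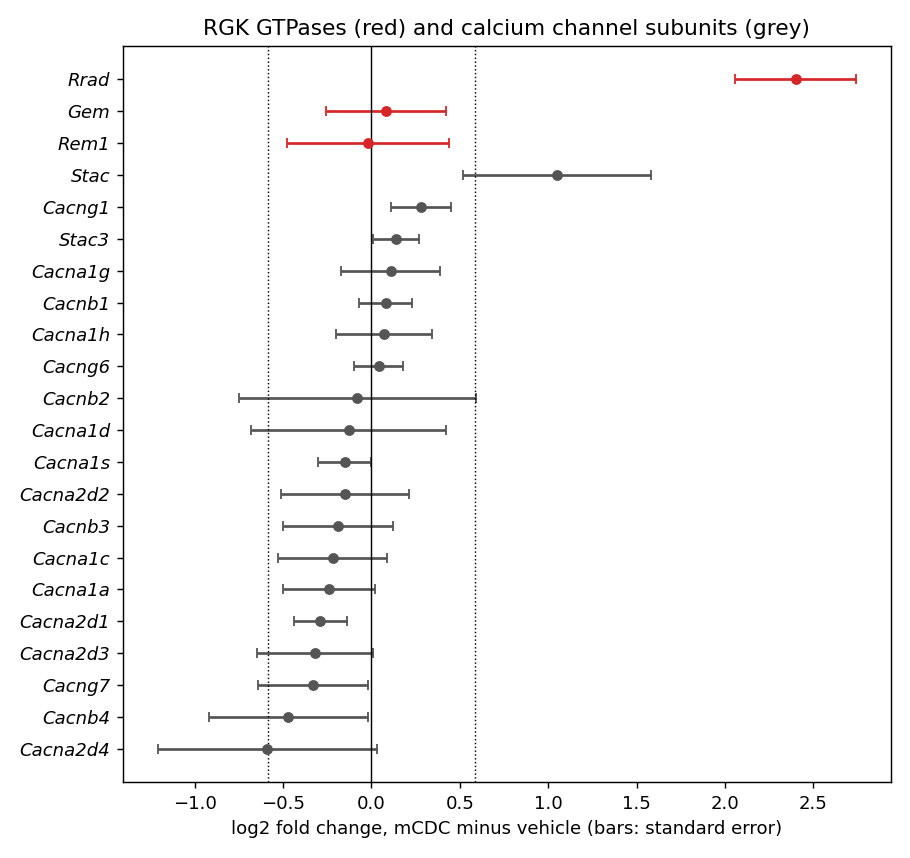
log2 fold change of mCDC over vehicle muscles (x axis) for the 3 RGK genes that passed the filter (red) and the 19 tested channel subunits and STAC adaptors (grey), with standard errors as bars and dotted lines at 1.5-fold. Rrad stands at 2.40, while Gem at 0.08, Rem1 at -0.02 and the channel genes, between -0.59 and 1.05, lie nearer 0.

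Among genes for proteins that RGK GTPases bind, no call was made, which at 1.26% and 2.74% of all genes is near the background. Of 22 listed genes for calmodulins, calmodulin kinase II, 14-3-3 proteins, the kinases Rock1 and Rock2 and other partners, 21 were tested. None was called by those 4 tests, Calm2 alone had an unadjusted p under 0.05, and the median log2 fold change was 0.11. Calm2, 1 of 3 genes for calmodulin, had 84.6 and 92.9 CPM in mCDC muscles and 70.8 and 66.5 CPM in vehicle muscles, or 0.37 on the log2 scale (standard error 0.13) with an adjusted p of 0.685 in edgeR's quasi-likelihood test. Rock1 and Rock2, kinases of the actin cytoskeleton that Gem and Rrad restrain, were at -0.19 (standard error 0.16) and -0.10 (standard error 0.14).

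The gene closest to Rrad in pattern was Serpina3n. Closeness was the root mean square difference in log2 CPM, after each gene was centred on its own mean, over the 4 libraries and among all tested genes; with so few libraries and a group difference this large, it mostly finds genes with a similar fold change. The 5 closest were Serpina3n at 0.080, Dct at 0.238, Hbegf at 0.284, Lcn2 at 0.297 and Tnfrsf12a at 0.374. Serpina3n, a secreted inhibitor of proteases that is induced in inflammation, had 28.2 and 64.9 CPM after mCDCs and 11.3 and 7.56 CPM after vehicle. Its 2 mCDC libraries were above the vehicle libraries and stood in the same order as for Rrad. Tnfrsf12a, the TWEAK receptor Fn14 of injured and denervated muscle, had 201 and 414 CPM against 94.9 and 88.5 CPM. Hbegf, an EGF-family growth factor, had 19.3 and 34.4 CPM against 7.17 and 6.65 CPM. Dct, an enzyme of melanin synthesis, and Lcn2, an iron-carrier binding protein of acute inflammation, rested on 3 to 26 counts per library and dropped out when at least 10 counts were asked of every sample.

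**Figure D4:**
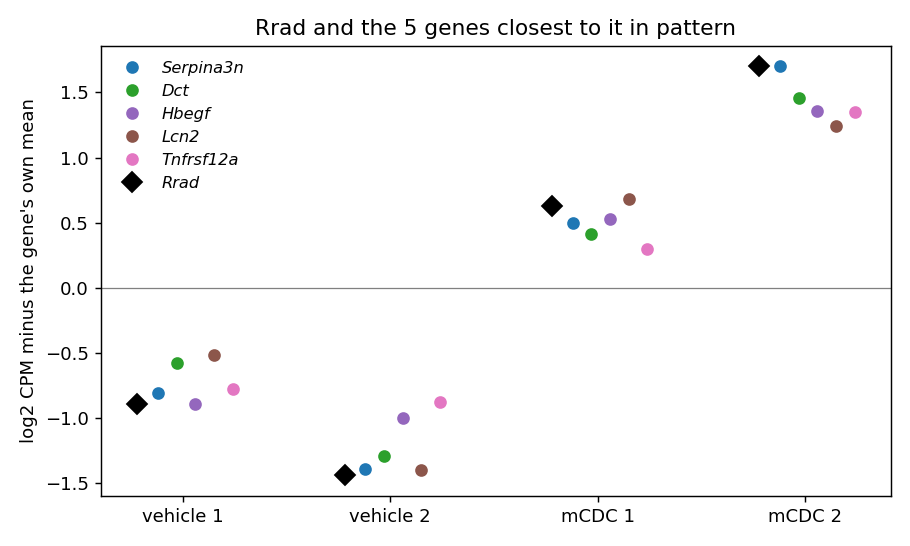
log2 CPM minus each gene's own mean over the 4 libraries (y axis) for Rrad (black diamonds) and the 5 tested genes closest to it in pattern (coloured points, set side by side within a library). All 6 genes are lowest in the vehicle libraries and highest in mCDC replicate 2, where Rrad stands at 1.70 and Serpina3n at 1.70.

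Rrad is known to be made in regenerating and denervated muscle, and lists for both states, and for immediate early and injury genes, were read beside it. Of 13 regeneration genes 4 were called higher and 0 lower, where 1.26% of all tested genes were called higher and 2.74% lower, and their median log2 fold change was 0.15. Myog, which drives differentiation of myoblasts, had 32.6 and 63.3 CPM in mCDC muscles and 21.2 and 24.4 CPM in vehicle muscles, or 1.07 on the log2 scale (standard error 0.28) with an adjusted p of 0.612 in edgeR's quasi-likelihood test, and like Rrad it was higher in mCDC replicate 2 than in replicate 1. Myod1, the determination factor, had the reverse order, with 50.4 CPM in replicate 1 and 30.5 in replicate 2, against 19.1 and 26.0 CPM. Pax7, the satellite cell factor, was at 0.76 (standard error 0.28) and Myf6, the factor of mature fibers, at 0.59 (standard error 0.20). Pax7 and Myf6 were not called without mCDC replicate 2 or without vehicle replicate 2, Pax7 and Myod1 not without mCDC replicate 1, Myod1 not without vehicle replicate 1, and Myog not without mCDC replicate 2, where it stood at 0.51. Pax7 was also not called with DESeq2, nor Myf6 with library totals alone or with the length and GC trend removed. The value of Pax7 stayed between 0.65 and 0.88 with 1 library left out, and Myf6 was at 0.56 with that trend removed. Embryonic myosin Myh3 was at -0.15 (standard error 0.14), with 410 and 418 CPM against 495 and 422 CPM, and neonatal Myh8 at -0.12 (standard error 0.24). With mCDC replicate 2 left out 1 regeneration gene was called, where 0.8% of all genes were called higher and 1.69% lower. With mCDC replicate 1 left out 2 were called, beside 2.84% higher and 3.89% lower of all genes, and with vehicle replicate 2 left out also 2, beside 1.56% and 2.53%.

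Of 11 denervation genes 2 were called higher and 0 lower, beside the same 1.26% and 2.74% of all genes, with a median of 0.23. Cdkn1a, a cell cycle inhibitor induced by p53 and by denervation, had 75.3 and 97.8 CPM against 40.7 and 52.1 CPM, or 0.90 on the log2 scale (standard error 0.18) with an adjusted p of 0.462 in edgeR's quasi-likelihood test, and was called in all 14 alternative analyses. The transcription factor Runx1 was at 0.66 (standard error 0.26), with 18.8 and 30.7 CPM against 18.2 and 13.2 CPM, and was not called without mCDC replicate 2, without vehicle replicate 2, with library totals alone or with the replicate number as a block. Hdac4, a histone deacetylase induced by denervation, was at -0.65 with an unadjusted p of 0.0523 and was not called, but DESeq2, the exact test, the likelihood ratio test, library totals alone, the replicate block and the fits without mCDC replicate 1 or vehicle replicate 2 called it lower. The acetylcholine receptor subunit Chrnb1 was at 0.42 (standard error 0.15) with an unadjusted p of 0.0225 in edgeR's quasi-likelihood test. Chrna1 was at 0.25 (standard error 0.14). Both had each mCDC value above each vehicle value, as in 19.2% of all tested genes, and neither was called. The fetal subunit Chrng was at 0.27 (standard error 0.28) with overlapping groups, at 8.18 and 5.02 CPM against 4.81 and 6.22 CPM. Without mCDC replicate 2 the count of called denervation genes was 1, beside 0.8% of all genes called higher and 1.69% lower at that setting.

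Of 23 immediate early and injury genes 3 were called higher and 2 lower, again beside 1.26% and 2.74% of all genes, with a median of 0.22. Atf3, a stress-induced transcription factor, had 21.6 and 60.0 CPM against 14 and 11.8 CPM, or 1.65 on the log2 scale (standard error 0.41) with an adjusted p of 0.567 in edgeR's quasi-likelihood test, with the same order of libraries as Rrad. It stood at 0.74 without mCDC replicate 2 and at 2.21 without mCDC replicate 1. Fosl1, an AP-1 subunit, was at 3.83 (standard error 0.82, adjusted p of 0.527) on 24.8 and 76.6 counts against 4.26 in each vehicle library. It passed the filter on low counts only through its mCDC libraries, so nothing is read from its p or its call. It stood at 2.63 without mCDC replicate 2 and at 4.52 without mCDC replicate 1, and was not tested when at least 10 counts were asked of every sample. Ankrd1, a stretch-responsive muscle protein, had 118 and 256 CPM against 118 and 109 CPM, or 0.72 on the log2 scale (standard error 0.31, adjusted p of 0.713), and was called in 6 of 14 alternative analyses, with 0.06 when mCDC replicate 2 was left out. Zfp36, which degrades messages of inflammation, fell by 0.70 (standard error 0.24, adjusted p of 0.684) and Klf6, a zinc finger factor, by 0.63 (standard error 0.21, adjusted p of 0.677) on the log2 scale. Klf6 was not called without mCDC replicate 1, without vehicle replicate 1 or with the length and GC trend removed, and Zfp36 not without mCDC replicate 2 or without vehicle replicate 1. Jund, another AP-1 subunit, was at 0.54 (standard error 0.15) with an unadjusted p of 0.00604, under 1.5-fold and so not called. Fos overlapped between the groups, at 23.2 and 20.3 CPM against 18.2 and 24.1 CPM. The count of called genes was 10 without mCDC replicate 1, where 2.84% of all genes were called higher and 3.89% lower. It was 3 when mCDC replicate 2 was left out, beside 0.8% and 1.69%, and 8 when vehicle replicate 2 was, beside 1.56% and 2.53%.

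**Figure D5:**
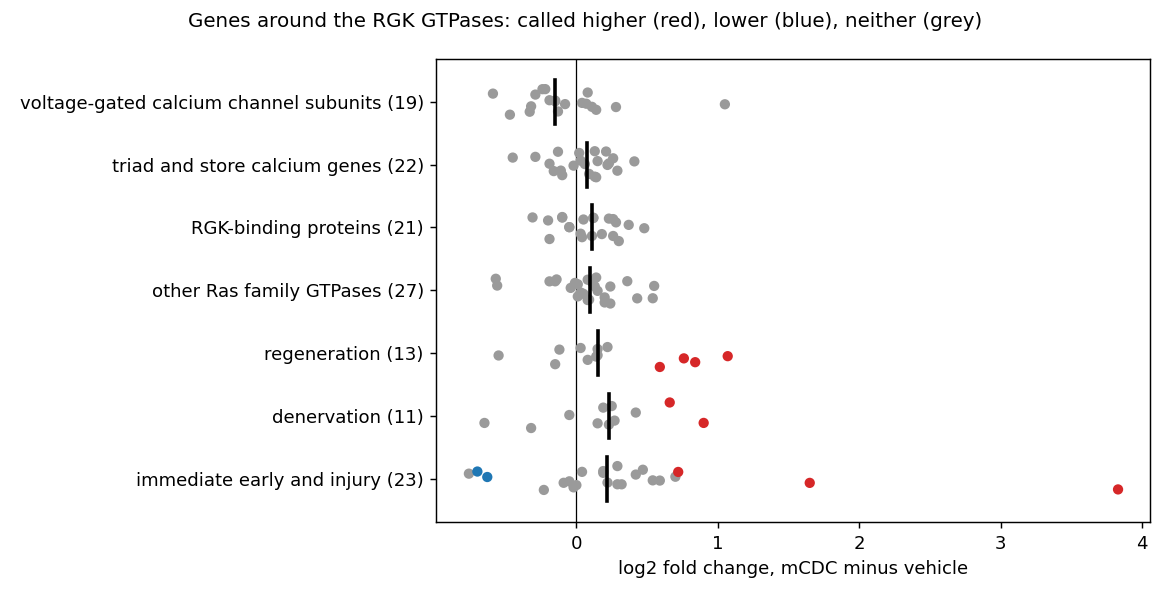
log2 fold change of mCDC over vehicle muscles (x axis) for each tested gene of 7 lists around the RGK GTPases (number tested in brackets), with the list median as a black bar. Calls are on the regeneration, denervation and immediate early lists, and the channel, triad, RGK-binding and other Ras lists hold none, where 1.26% of all tested genes were called higher and 2.74% lower; the difference between lists was not tested.

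Rrad is also abundant in heart, the source of the infused cells, and the summed level of cardiomyocyte markers overlapped between the groups. The paper describes mCDCs as cardiac progenitor or stromal cells, and whether they make these markers was not measured. The markers therefore cannot show whether infused cells were present. Over 9 cardiomyocyte markers the summed level was 363 and 360 CPM after mCDCs and 372 and 325 CPM after vehicle, and none of the 5 that were tested was called. Most of that sum came from Sln, Myl4, Myh6 and Tnnt2, which dystrophic or slow skeletal muscle also makes. Over all tested genes 1.26% were called higher and 2.74% lower. No call in so small a set is near that background, here and in the sets below. The defining atrial and ventricular markers Myl7 and Mybpc3 had 0 to 2 counts and the natriuretic peptides Nppa and Nppb 3 to 7 counts in every library, and cardiac troponin Tnni3 had 13 to 23. The 5 satellite cell markers summed to 52.7 and 49.1 CPM in mCDC muscles and 42.6 and 43.9 CPM in vehicle muscles, with Pax7 called higher. Macrophage markers summed to 46.7 and 52.0 CPM against 39.4 and 68.0 CPM, with Cd68 called higher and Csf1r lower. The lymphocyte markers, of the cells in which Gem was first described, summed to 0.945 to 1.48 CPM, with Cd3e, Cd3g and Ms4a1 at or under 3 counts in every library. Schwann cell markers summed to 59.9 to 81.6 CPM, adipocyte markers to 149 to 217 CPM and neuronal markers to 2.14 to 4.44 CPM, with none called. Most of the adipocyte sum came from Fabp4, at 114 to 200 CPM and highest in vehicle replicate 2. Adipoq, Plin1, Cfd, Lep and Cidec were instead highest in vehicle replicate 1 and lowest in vehicle replicate 2. The 8 smooth muscle and pericyte markers, which include the muscle protein Des, summed to 10359 to 12578 CPM, with Rgs5 called lower. The part of any of these cells in the Rrad difference was not tested.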

How the data were processed

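Total RNA from soleus was sequenced as single-end reads. Per the study's methods, Bowtie 2 aligned them to UCSC transcripts and RSEM estimated the expected counts that the authors deposited, which are not normalized. The submitters' processing notes name Bowtie2 2.1.0, RSEM 1.2.15 and mm10. The paper's methods and the sample records name different library kits. After rounding, edgeR 4.0.16 (R 4.3.3) was used with its filterByExpr filter, TMM scaling, the quasi-likelihood F-test with legacy = FALSE and Benjamini-Hochberg adjustment over all genes tested. Standard errors are the absolute log2 fold change over the square root of F. log2 CPM used a prior count of 2. Levels per length (TPM) were computed here from the counts and the mean length of complete protein-coding transcripts in GENCODE M21; of 24054 symbols, 22750 matched by name, 916 by an older name and 388 not at all. The thresholds for a call were taken from the study's methods. The members and gene lists were chosen with earlier results of these data known, and 1 gene and 1 list of them are not reported here. Named genes were the members, 5 channel genes, called members of the lists and the 5 genes closest in pattern to Rrad and to Gem; other list genes named were chosen after their values were seen. Nothing in the records says whether the 2 muscles of a group came from different mice, so p-values measure only the spread between these samples. The fit was tested on simulated data. Alternatives were DESeq2 1.42.0, other edgeR tests, scalings and filters, the replicate number as a block, a length and GC correction, and leaving out each library.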

Additional observations from a re-analysis of the deposited data

How the results depend on the processing

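The lengths with incomplete transcripts were added as an alternative after seeing the data. What causes the changes was not tested. Rrad stayed between 2.29 and 2.42 in log2 fold change over the 10 alternatives that kept all libraries, and between 1.77 and 2.84 with 1 library left out, a lone library being assumed to vary like the other group. Gem ran from -0.26 to 0.54 and Rem1 from -0.56 to 0.88 with 1 library left out, and both changed sign. All genes called numbered 348 without mCDC replicate 2 and 1107 without vehicle replicate 1, and scaling by library totals gave 121 higher and 508 lower against 172 and 374. With 1 library left out, called genes numbered 0 to 1 for channel subunits (Cacna1a), 0 to 1 for RGK partners (Nme1), 0 to 3 for Ras genes (Rras2, Rhebl1, Diras1), 1 to 3 for regeneration, 1 to 3 for denervation and 3 to 10 for immediate early genes. The 3 Ras calls came without vehicle replicate 1, where 1.95% of all genes were called higher and 5.97% lower. Without a filter on low counts, 1 channel gene (Cacna1b) and 1 Ras gene (Rergl) were called lower, beside 466 of 18132 genes in all. Immediate early genes had 3 calls with the length and GC trend removed, beside 459 of 13531 genes. The deviations of same-numbered libraries from their group means were nearly uncorrelated (r = -0.0388 over 13652 genes). With 2 libraries per group, that value cannot show whether the numbers stand for a pairing. The replicate block called 480 genes in place of 546 and put Rrad at 2.33, Gem at 0.12 and Rem1 at 0.08. Of the 5 genes closest to Rrad, 3 stayed with at least 10 counts in every sample. At 24 to 77 counts, depth limits what Gem and Rem1 can show.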

Other observations

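Gem varied more between the vehicle libraries than between the groups. The 5 tested genes closest to it in pattern, by the root mean square difference of centred log2 CPM over the 4 libraries, were Fxyd5 at 0.033, Hdac7 at 0.036, Ccdc142 at 0.040, Arhgdib at 0.041 and Mbd4 at 0.043. Hdac7, a histone deacetylase of endothelial cells and lymphocytes, had 34.9 and 42.8 CPM in mCDC replicates 1 and 2 and 27.9 and 47.1 CPM in vehicle replicates 1 and 2. Arhgdib had 4.92 and 5.80 CPM against 3.97 and 6.44 CPM. Each of the 5 had its lowest value in vehicle replicate 1 and its highest in vehicle replicate 2, with log2 fold changes between 0.02 and 0.08. That likeness follows from picking them for closeness to Gem in these 4 libraries. With a prior count of 0.5, Arhgdib and Mbd4 left the closest 5.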
